A study of Mus musculus with 8 samples.

Results

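The 10 genes of interleukin 6 family signalling described here were measured in mouse blood cells: the ligands Clcf1 and Osm, the receptor chains Il6ra, Il6st and Csf3r, the kinases Jak1 and Jak2, the transcription factor Stat3 and the feedback inhibitors Socs1 and Socs3. They were chosen by name and role, with the fold changes and calls of this same comparison already known. Calls of members are therefore given as a description of this comparison, with no p-value, and are not independent evidence. All 10 were among the 35944 genes summed from the deposited table, and 9 were among the 10361 genes tested. Socs1 was under the filter on low counts.

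The RNA came from buffy coats, the layer of white cells and platelets in centrifuged blood. One group of mice was exposed to PM2.5, fine airborne particulate matter, and the other received PBS, phosphate-buffered saline, as the control. Exposure lasted 24 weeks in both. The labels give no strain, sex, age, allele or route. Each group had 4 libraries, called by the numbers in the sample titles, 9, 17, 18 and 21 for PM2.5 and 4, 10, 12 and 16 for PBS. Whether each library is a separate animal is not stated, so p-values measure only the spread between these samples, which may be technical.

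Libraries held 72081019 to 89032794 expected counts. Haemoglobin took 86.7% to 88.6% of them with PM2.5 and 82.4% to 87.9% with PBS, which left 9615115 to 12714432 counts for all other genes. Markers of neutrophils, monocytes, B cells, T cells, natural killer cells and platelets were all counted. PM2.5 replicates 17 and 18 stood apart: the brain-expressed genes Mobp, Snap25, Syt1, Camk2a and Slc1a2 summed to 191 and 218 counts there, to 0 in PM2.5 replicates 9 and 21, and to at most 15 in a PBS library.

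Cytokines of the interleukin 6 family bind receptor complexes that most often contain gp130, the product of Il6st. The complexes carry JAK kinases, which phosphorylate STAT3, and STAT3 dimers enter the nucleus and bind promoters. SOCS proteins are induced by this signal and shut it off, SOCS3 by binding gp130 and the receptor for granulocyte colony-stimulating factor, the product of Csf3r, which drives neutrophil production.

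Because STAT3 dimers bind a palindrome, the letters TTCNNNGAA (the same on both strands) were searched in the 250 bases before the RefSeq start site (GRCm38.p6). Of the 8 members with a window, all but Clcf1 and Osm, only Socs3 held the motif, at chr11:117969512-117969520, 146 to 154 bases before the start. The window is shown because Socs3 had the largest increase among the members tested. By the GENCODE annotation used for counting, Socs3 spans 117966079 to 117970047, so the window lies inside the gene there. It is chr11:117969367-117969616, minus strand, with the motif in capitals.
Socs3 promoter window: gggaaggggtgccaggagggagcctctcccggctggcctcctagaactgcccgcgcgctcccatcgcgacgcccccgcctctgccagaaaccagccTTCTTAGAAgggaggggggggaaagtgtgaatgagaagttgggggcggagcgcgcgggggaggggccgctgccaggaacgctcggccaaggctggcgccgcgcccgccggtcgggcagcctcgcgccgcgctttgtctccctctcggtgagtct
The letters occur in 2306 of 32851 such windows, 7.02%. A match is a description of sequence, and binding was not measured.

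Levels below are CPM, counts scaled to the TMM-adjusted library total, and fold changes are log2 of PM2.5 over PBS from edgeR with its standard error (SE). A gene is called where edgeR's Benjamini-Hochberg adjusted p over all tested genes is under 0.05. Among the 9 members tested, Socs3 was called higher and Clcf1 lower, and 7 were not called. Of all tested genes 1.6% were called, 0.463% higher and 1.14% lower. The members' median log2 fold change was 0.08, beside 0.04 for all tested genes. In bulk RNA, fewer cells of a type and less RNA per cell cannot be told apart, and this holds for each level below.

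**Figure D1:**
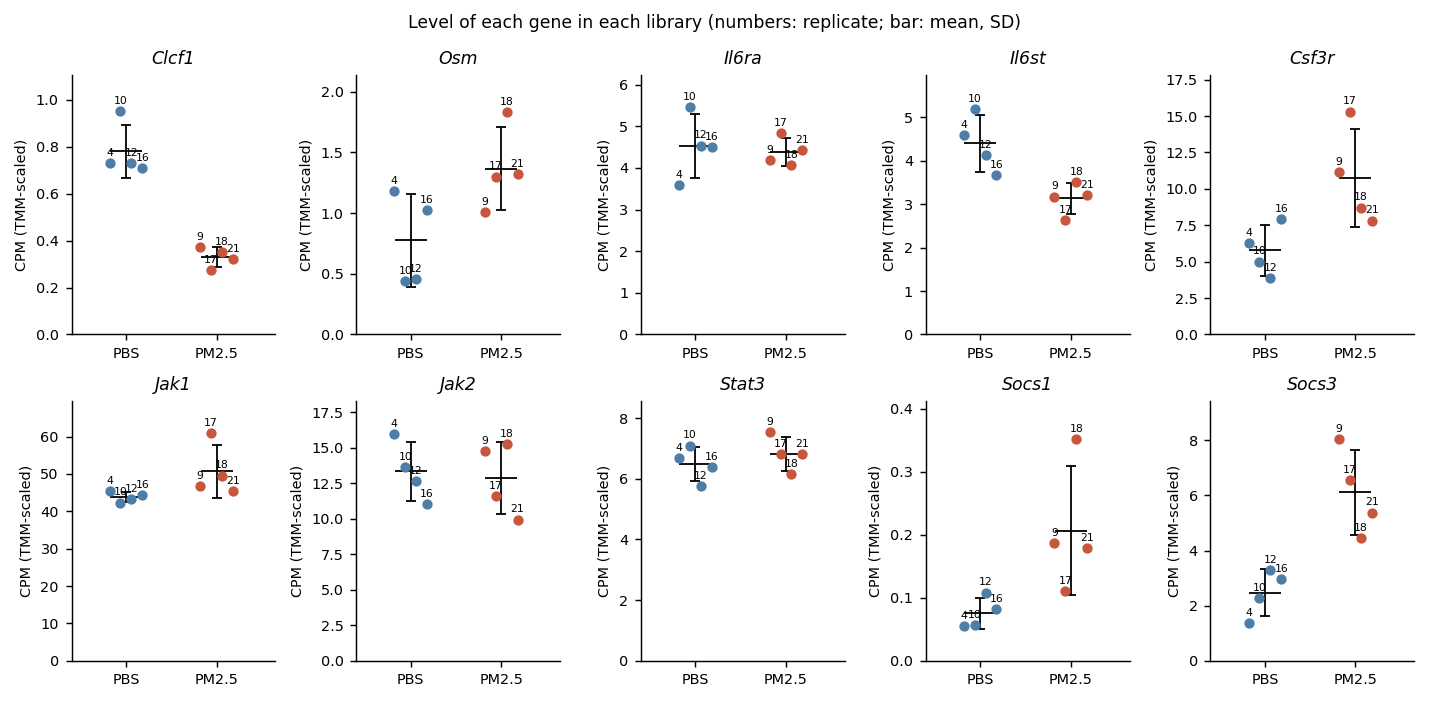
Level of each of the 10 genes in every library (CPM, vertical axis from 0), 1 point per library numbered by replicate, with bars for the group mean and SD (n = 4). Socs3 lay at 4.44 to 8.05 CPM with PM2.5 and 1.36 to 3.29 with PBS, while Clcf1 lay at 0.275 to 0.373 and 0.709 to 0.951.

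Of the ligands, Clcf1 was lower with PM2.5 and Osm was not called. Clcf1, a cytokine that stimulates B cells and signals through gp130 and the LIF receptor (chromosome 19, 4214238 to 4223490, GRCm38), was at 0.373, 0.275, 0.352 and 0.321 CPM in PM2.5 replicates 9, 17, 18 and 21. In PBS replicates 4, 10, 12 and 16 it was at 0.732, 0.951, 0.729 and 0.709 CPM. Every PM2.5 library lay under every PBS library, and PBS replicate 10 stood above the other controls. The means were 0.330 ± 0.0427 and 0.780 ± 0.115 CPM (SD, n = 4 each), a log2 fold change of -1.23 (SE 0.239). These levels rest on 15 to 30.5 expected counts per PM2.5 library and 54 to 102 per PBS library. The gene passed in 6 of 8 fits that left out 1 library. Leaving out PM2.5 replicate 17 (-1.16), PBS replicate 10 (-1.15), or PM2.5 replicates 17 and 18 together (-1.16) ended the call.

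Most Clcf1 counts fell on a transcript annotated as a retained intron, Clcf1-203. Summed over libraries, it held 71.7% of the gene's counts with PM2.5 and 72.9% with PBS. The coding transcript Clcf1-201 held 23.54 and 79.02 counts in the same sums, so both forms held fewer counts with PM2.5. These sums are not scaled, and the TMM factors ran from 0.6381 to 1.105 with PM2.5 and from 0.8323 to 1.518 with PBS. The gap in summed counts is therefore wider than the gap in scaled level. The share of Clcf1-203 per library ran from 46.1% to 98.8% with PM2.5 and from 59.4% to 82.7% with PBS. The gene overlaps AC109138.7 on its own strand, which had 0.5 counts over all libraries.

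Osm encodes oncostatin M, a cytokine made by activated myeloid cells and T cells (chromosome 11, 4236420 to 4241026). It was at 1.01, 1.30, 1.83 and 1.32 CPM in PM2.5 replicates 9, 17, 18 and 21, and at 1.18, 0.438, 0.459 and 1.03 CPM in PBS replicates 4, 10, 12 and 16. The groups overlapped, with PBS replicates 10 and 12 low and PBS replicate 4 above PM2.5 replicate 9. The means were 1.36 ± 0.342 and 0.776 ± 0.383 CPM (SD, n = 4 each), with a log2 fold change of 0.79 (SE 0.295) that was not called. It was called with no filter on low counts (0.77).

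The receptor chains also differed from each other. Il6ra, which binds interleukin 6 itself (chromosome 3, 89864059 to 89913196), was at 4.19, 4.84, 4.07 and 4.42 CPM with PM2.5 and 3.59, 5.46, 4.54 and 4.51 CPM with PBS, in the same library order. The PM2.5 libraries lay within the range of the controls. Its log2 fold change was -0.05 (SE 0.157).

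Il6st, the shared signalling chain gp130 (chromosome 13, 112464070 to 112510086), was at 3.17, 2.64, 3.52 and 3.21 CPM with PM2.5 and 4.60, 5.20, 4.13 and 3.67 CPM with PBS. Every PM2.5 library lay below every control, the nearest being PM2.5 replicate 18 and PBS replicate 16. The means were 3.13 ± 0.364 and 4.40 ± 0.652 CPM (SD, n = 4 each). The log2 fold change of -0.49 (SE 0.158) was not called by edgeR, but was called by DESeq2 with the same size.

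Csf3r, the receptor for granulocyte colony-stimulating factor (chromosome 4, 126024550 to 126044440), was at 11.2, 15.3, 8.72 and 7.82 CPM with PM2.5 and 6.27, 5.01, 3.89 and 7.92 CPM with PBS. The groups overlapped only through PM2.5 replicate 21 and PBS replicate 16, whose levels were almost equal. The means were 10.7 ± 3.35 and 5.77 ± 1.73 CPM (SD, n = 4 each), a log2 fold change of 0.89 (SE 0.232). It was not called with all libraries, and was called without PBS replicate 16 (1.07) and by DESeq2 (0.89).

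Neither kinase was called, nor was the transcription factor. Jak1 (chromosome 4, 101152367 to 101265282) was at 46.8, 60.9, 49.6 and 45.4 CPM with PM2.5 and 45.4, 42.3, 43.2 and 44.4 CPM with PBS. The groups just failed to overlap, since PM2.5 replicate 21 and PBS replicate 4 shared the same rounded level, and PM2.5 replicate 17 was the highest. The log2 fold change was 0.21 (SE 0.181).

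Jak2, the kinase that also serves the erythropoietin and thrombopoietin receptors (chromosome 19, 29251828 to 29313080), was at 14.8, 11.6, 15.2 and 9.94 CPM with PM2.5 and 15.98, 13.7, 12.7 and 11.0 CPM with PBS. The groups overlapped over most of their range. Its log2 fold change was -0.05 (SE 0.186).

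Stat3 itself (chromosome 11, 100885098 to 100939540) was at 7.53, 6.82, 6.14 and 6.82 CPM with PM2.5 and 6.69, 7.10, 5.75 and 6.39 CPM with PBS. The means were 6.83 ± 0.566 and 6.48 ± 0.567 CPM (SD, n = 4 each), and the log2 fold change was 0.08 (SE 0.149). Stat3 lies beside Stat5a on the opposite strand with overlapping annotation, and Stat5a held 62 to 197.57 counts per library. RNA levels say nothing of phosphorylation, which was not measured.

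Of the feedback inhibitors, Socs3 was called higher and Socs1 was too low to be tested. Socs3 (chromosome 11, 117966079 to 117970047) was at 8.05, 6.56, 4.44 and 5.38 CPM in PM2.5 replicates 9, 17, 18 and 21, and at 1.36, 2.27, 3.29 and 2.95 CPM in PBS replicates 4, 10, 12 and 16. PM2.5 replicate 9 was the highest and PBS replicate 4 the lowest. The means were 6.11 ± 1.56 and 2.47 ± 0.852 CPM (SD, n = 4 each), a log2 fold change of 1.31 (SE 0.237) or 2.49-fold. Of 10361 tested genes, 51 had a log2 fold change at least as high. Before scaling, the expected counts were 647, 358, 240 and 453 with PM2.5 and 149, 243, 244 and 325 with PBS, and these do overlap. The gene passed in 7 of 8 fits that left out 1 library. The call ended when PBS replicate 10 (1.24), PM2.5 replicates 17 and 18 (1.46) or PM2.5 replicates 9 and 21 (1.13) were left out.

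Socs1, an inhibitor that binds JAK kinases directly (chromosome 16, 10782240 to 10785536), was scarce. It had 15, 6, 19 and 15 counts with PM2.5 and 6, 6, 8 and 9 with PBS, which is 0.187, 0.110, 0.352 and 0.178 CPM against 0.0549, 0.0560, 0.108 and 0.0818 CPM. The counts overlapped, and in CPM PM2.5 replicate 17 and PBS replicate 12 were almost equal. Without the filter its log2 fold change was 1.43 (SE 0.588), which was not called.

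Of the 9 members tested, Socs3 and Jak1 lay wholly above the controls, Jak1 by a margin that vanishes on rounding, Clcf1 and Il6st wholly below, and 5 overlapped. Among all tested genes 9.65% did not overlap, 3.01% above and 6.64% below.

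Scaling sets the sign of the small changes. With library totals in place of TMM, the median of all genes moved from 0.04 to -0.52. Jak1 then had a log2 fold change of -0.39 and Stat3 of -0.49, both negative, yet 0.13 and 0.03 above that median. Socs3 was at 0.86 and not called, 1.38 above the median. Clcf1 was at -1.79, Il6st at -1.07, Csf3r at 0.25 and Osm at 0.12.

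**Figure D2:**
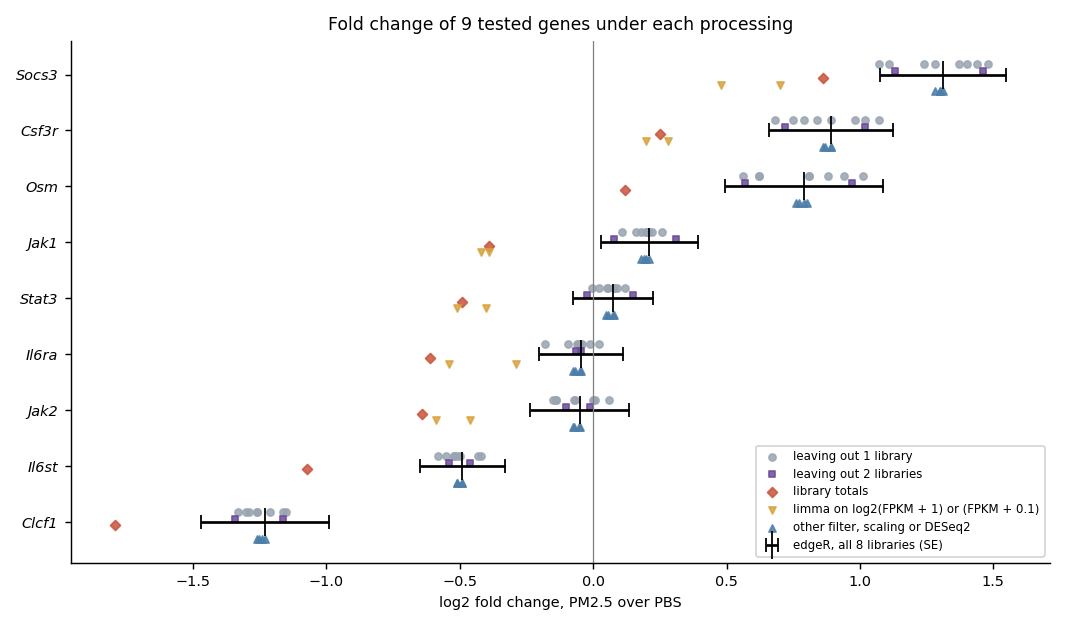
Log2 fold change (PM2.5 over PBS) of each member tested, on the horizontal axis: black bars are the edgeR fit to all 8 libraries with its SE, and coloured points are the alternative settings. Socs3 stayed above 0 and Clcf1 below 0 in every setting plotted for them, whereas Jak1 and Stat3 crossed 0 with library totals.

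Levels can be ordered between genes only per transcript length. By deposited FPKM (fragments scaled by transcript length and library total, haemoglobin included) summed over transcripts, Jak1 led with a mean of 11.1 over the 8 libraries (7.31 to 16.04) and exceeded the next gene in all 8. Stat3 (3.60), Jak2 (3.50) and Csf3r (3.36) followed close together: Stat3 exceeded Jak2 in 2 libraries and Jak2 exceeded Csf3r in 4. Socs3 had 1.85, Il6ra 0.989, Il6st 0.740, Osm 0.544, Clcf1 0.293 and Socs1 0.050. Csf3r exceeded Socs3, and Clcf1 exceeded Socs1, in all 8 libraries. Il6st exceeded Osm in 5, so those neighbours were not separated. The order depended on the group. With PM2.5, Csf3r had a mean of 3.59 FPKM, above Stat3 (2.95) and Jak2 (2.78), and with PBS it had 3.13, below Stat3 (4.24) and Jak2 (4.22). Osm was at 0.558 and Il6st at 0.478 FPKM with PM2.5, and at 0.530 and 1.00 with PBS. Counting coding transcripts alone moved Stat3 from above Jak2 to below Socs3, at 1.48 FPKM, and Clcf1 to 0.116.

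The genes around the members came from 6 lists by role, also drawn up with earlier results of these data known. Their calls and p-values are therefore likewise a description and not independent evidence. The lists held 94 genes, of which 75 were tested. Of these, 8 were called higher and 1 lower, 12%, beside 1.6% of all tested genes (0.463% higher and 1.14% lower). The median log2 fold change of the 75 was 0.07, beside 0.04 for all tested genes. The other ligands were nearly silent. Il11, Ctf1 and Il31 had 0 counts in every library, Il6 had 0 to 7, and of the 10 listed only Cntf, ciliary neurotrophic factor, was tested. Cntf had a log2 fold change of 0.75 with an SE of 0.381 (edgeR adjusted p = 0.305) and overlaps Zfp91 on the same strand.

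**Figure D3:**
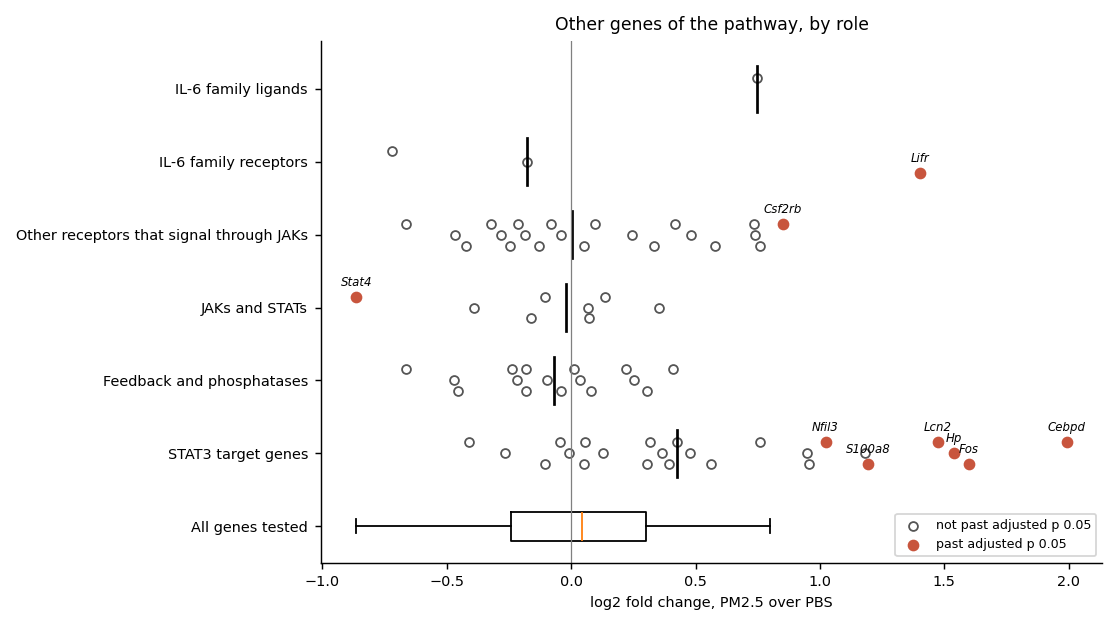
Log2 fold change (PM2.5 over PBS) of each tested gene in the 6 pathway lists, 1 row of points per list, with called genes filled, list medians as vertical bars, and a box of all tested genes. STAT3 target genes held 6 of the 8 increases and their median lay at 0.42.

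Among the 6 other receptor chains of the family, 3 were tested and 1 was called higher. Lifr, the LIF receptor that pairs with gp130 (chromosome 15, 7090614 to 7197489), was at 0.610, 1.25, 0.703 and 1.24 CPM in PM2.5 replicates 9, 17, 18 and 21, and at 0.430, 0.270, 0.338 and 0.391 CPM in PBS replicates 4, 10, 12 and 16. The groups did not overlap, and PM2.5 replicates 17 and 21 were about level. The estimate of log2 fold change was 1.402 (SE 0.279, edgeR adjusted p = 0.0193). Leaving out PM2.5 replicate 17 (edgeR adjusted p = 0.0666), PM2.5 replicate 21 (adjusted p = 0.0676) or PBS replicate 10 (adjusted p = 0.0975) ended the call. So did library totals, with a value of 0.81 (edgeR adjusted p = 0.202).

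Of 25 other receptors that signal through JAKs, 22 were tested and 1 was called higher, with a median of 0.01. Csf2rb, the shared beta chain for interleukin 3, interleukin 5 and GM-CSF (chromosome 15, 78325752 to 78353847), was at 3.41 ± 0.644 CPM with PM2.5 against 1.89 ± 0.307 CPM in the controls (SD, n = 4 each). The log2 fold change was 0.85 (SE 0.175, edgeR adjusted p = 0.0210). Its near-identical neighbour Csf2rb2 had 0.76, and both values are uncertain, since reads may not be told apart between the pair. Leaving out PM2.5 replicate 9 or 17, or else PBS replicate 4 or 10, ended the call, with edgeR adjusted p-values of 0.0621 to 0.114. So did library totals, with a log2 fold change of 0.29 (edgeR adjusted p = 0.554).

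All 8 of the other JAKs and STATs were tested, and 1 was called lower. Stat4, which carries interleukin 12 signals in T cells and natural killer cells (chromosome 1, 51987148 to 52107189), was at 1.18 ± 0.164 CPM with PM2.5 and 2.16 ± 0.415 CPM with PBS (SD, n = 4 each). The log2 fold change was -0.86 (SE 0.186, edgeR adjusted p = 0.0279). Leaving out PM2.5 replicate 17, 18 or 21, or else PBS replicate 10 or 12, ended the call, with edgeR adjusted p-values of 0.0540 to 0.109.

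No other feedback gene or phosphatase was called by edgeR among 16 tested of 17, and DESeq2 and limma called 0. Of the 16, 2 had an unadjusted edgeR p under 0.05, beside 1872 of all 10361 tested genes. Pias4, a SUMO ligase that inhibits STATs, was at -0.66 on the log2 scale (SE 0.274, edgeR adjusted p = 0.223). Ptpn1, a phosphatase that acts on JAK2, had 0.41 (SE 0.178, adjusted p = 0.244). Ptpn1 changed sign with library totals (-0.19).

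Of 28 genes known as STAT3 targets, 25 were tested, 6 were called higher and none lower, and 20 had a positive log2 fold change. Their median was 0.42, against 0.04 for all tested genes, of which 0.463% were called higher. Of all 10361 tested genes, 5631 had a positive log2 fold change. Hp, the haemoglobin-binding acute phase protein haptoglobin, was at 3.19 ± 0.947 CPM with PM2.5 against 1.09 ± 0.228 CPM in the controls (SD, n = 4 each; log2 fold change 1.54, SE 0.212, edgeR adjusted p = 0.00290). Nfil3, a transcription factor needed by natural killer cell precursors, was at 2.32 ± 0.240 and 1.14 ± 0.201 CPM (log2 fold change 1.02, SE 0.175, edgeR adjusted p = 0.00997). Both passed with any 1 library left out. Without PM2.5 replicates 17 and 18, Hp alone passed among the 75 pathway genes tested, and Nfil3 was at 1.12 (edgeR adjusted p = 0.0617).

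The other 4 were less stable. Fos, the immediate early factor, was at 1.60 on the log2 scale (SE 0.292, edgeR adjusted p = 0.0122) and lost its call when PBS replicate 10 was left out (adjusted p = 0.0552). S100a8, a neutrophil calcium-binding protein, had 1.19 (SE 0.253, adjusted p = 0.0264). Lcn2, an iron-sequestering neutrophil granule protein, had 1.47 (SE 0.328, adjusted p = 0.0335). Leaving out PM2.5 replicate 9 or 17, or else PBS replicate 4, 10 or 12, ended both calls, with edgeR adjusted p-values up to 0.139 for S100a8 and 0.150 for Lcn2. Cebpd, a myeloid transcription factor at only 0.315 ± 0.143 and 0.0799 ± 0.0298 CPM, had 1.99 (SE 0.454, adjusted p = 0.0357). Leaving out PM2.5 replicate 9, 17 or 21, or else any PBS library other than 16, ended its call, with edgeR adjusted p-values up to 0.150.

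Some of these targets are also cell type markers: S100a8, S100a9 and Lcn2 stood on the neutrophil list too. Without those 3, 22 tested targets remained, 4 were called higher and the median was 0.38. Only genes on that list were removed, and whether the other targets follow the cell makeup of the samples was not tested. With library totals none of the 25 was called, and 10 had a positive log2 fold change. The list's median then turned to -0.15, still above the -0.52 of all genes. With either limma fit, 5 of 11 tested targets had a positive value. Without PM2.5 replicates 17 and 18, 1 target was called and the median was 0.40.

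Some white cell markers also differed between the groups. Their lists, too, were drawn up with earlier results of these data known, and the calls are a description. Beside them, 0.463% of all tested genes were called higher and 1.14% lower. Of all 10361 tested genes, 1872 had an unadjusted edgeR p under 0.05 and 5631 a positive log2 fold change. The 10 neutrophil markers summed to 20.1 to 40.8 CPM with PM2.5 and 10.4 to 19.9 CPM with PBS. These did not overlap, by a narrow margin between PM2.5 replicate 18 and PBS replicate 16. Of the 7 neutrophil markers tested, 5 were called higher (median log2 1.19). Ltf, Camp and Ngp were under the filter. The 8 monocyte markers summed to 47.1 to 75.8 and 28.9 to 48.0 CPM, which overlapped, with 3 called higher. The 10 B cell markers summed to 37.7 to 47.9 and 44.1 to 71.5 CPM, which overlapped. Of these, 3 were called lower and all 10 had negative log2 fold changes. No T cell marker of 8 was called by edgeR or DESeq2, and 1 had an unadjusted p under 0.05. The natural killer list had 1 of 6 called higher. In the eosinophil and basophil list 2 of 6 were tested, none was called by either tool or had an unadjusted p under 0.05, and Epx was at 0 in every library. All 10 erythroid and all 7 platelet markers had positive fold changes and none was called by either tool, with 3 erythroid and 0 platelet markers at an unadjusted p under 0.05. Without PM2.5 replicates 17 and 18, edgeR called 1 neutrophil, 2 monocyte and 0 B cell markers.

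The members were therefore also set against these sums, a comparison chosen after the values were seen. Csf3r per neutrophil marker CPM was 0.313 to 0.434 with PM2.5 and 0.375 to 0.513 with PBS. The mean log2 ratio differed by -0.22, where the level of Csf3r differed by 0.90. Socs3 per neutrophil marker CPM was 0.161 to 0.248 and 0.111 to 0.318, which overlapped, with a difference of 0.23 beside 1.35 for its level. Dividing by a given sum moves the mean log2 difference of every gene by the same amount. Per neutrophil marker CPM, Stat3 went from 0.08 to -1.04, Il6ra from -0.03 to -1.15 and Il6st from -0.49 to -1.60. All 3 ratios lay wholly below the controls. Against monocyte markers, Socs3 was at 0.0710 to 0.139 and 0.0284 to 0.114, a difference of 0.70. Against B cell markers, both lay wholly above the controls, Socs3 with a difference of 1.85 and Csf3r with 1.40.

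Clcf1 per B cell marker CPM was 0.00668 to 0.00933 with PM2.5 and 0.0110 to 0.0165 with PBS, without overlap. The mean log2 ratio differed by -0.74, where the level differed by -1.24. Il6st per B cell marker CPM overlapped, with a difference of 0.02 beside -0.49 for its level. The same division moved Stat3 from 0.08 to 0.58, wholly above the controls. What part the cell makeup of the samples has in these levels was not tested.

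**Figure D4:**
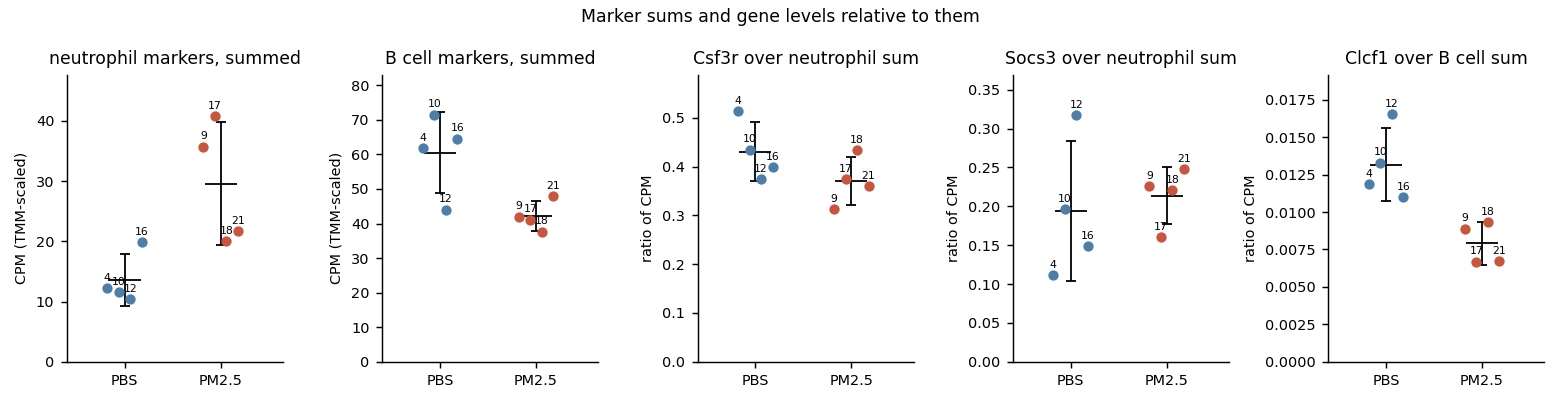
Summed neutrophil and B cell markers (CPM) and the ratios of Csf3r, Socs3 and Clcf1 to such a sum, 1 point per library numbered by replicate, with bars for the group mean and SD (n = 4). Csf3r and Socs3 overlapped between groups when divided by neutrophil markers, while Clcf1 divided by B cell markers did not.

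Transcript shares within a gene were not used in listing the members and could be tested. Genes with at least 50 counts in each library and at least 2 transcripts at a mean share of 10% or more were taken, which gave 8 transcripts of Il6ra, Il6st, Csf3r and Jak2. In Jak1, Stat3 and Socs3 a single transcript reached that share. None of the 8 had an unadjusted p under 0.05 by a two-sided exact permutation test, whose smallest p is 0.0286, and every adjusted p was at least 0.686. The design could hardly pass the threshold: a single transcript at the smallest p would have an adjusted p of 0.229, and 5 of the 8 would have to reach it together. The result therefore does not show that the shares were alike. Csf3r-201 held 82.1% ± 5.46 of its gene with PM2.5, against 81.0% ± 7.11 in the controls (SD, n = 4 each; exact p = 0.771). Il6st-201 held 36.2% ± 9.44 and 41.7% ± 6.74 (SD, n = 4 each; exact p = 0.371). Il6ra-201 held 44.6% ± 3.57 and 43.3% ± 8.80 (SD, n = 4 each; exact p = 0.886).

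The widest gap was in Jak2-202, which held 22.5%, 16.8%, 0.0% and 40.0% of Jak2 counts in PM2.5 replicates 9, 17, 18 and 21, and 39.2%, 32.7%, 50.4% and 44.6% in PBS replicates 4, 10, 12 and 16. The difference in means was -21.9 percentage points (exact permutation p = 0.0857, adjusted p = 0.686). Jak2-201, which was under the minimum mean share, was assigned 4.2%, 17.1%, 37.5% and 0.0% with PM2.5 and 0.0% in each control. Jak2-202 and Jak2-204 share the same coding exons, and Jak2-201 has a coding sequence of the same length. How reads were divided among these forms was not tested.

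**Figure D5:**
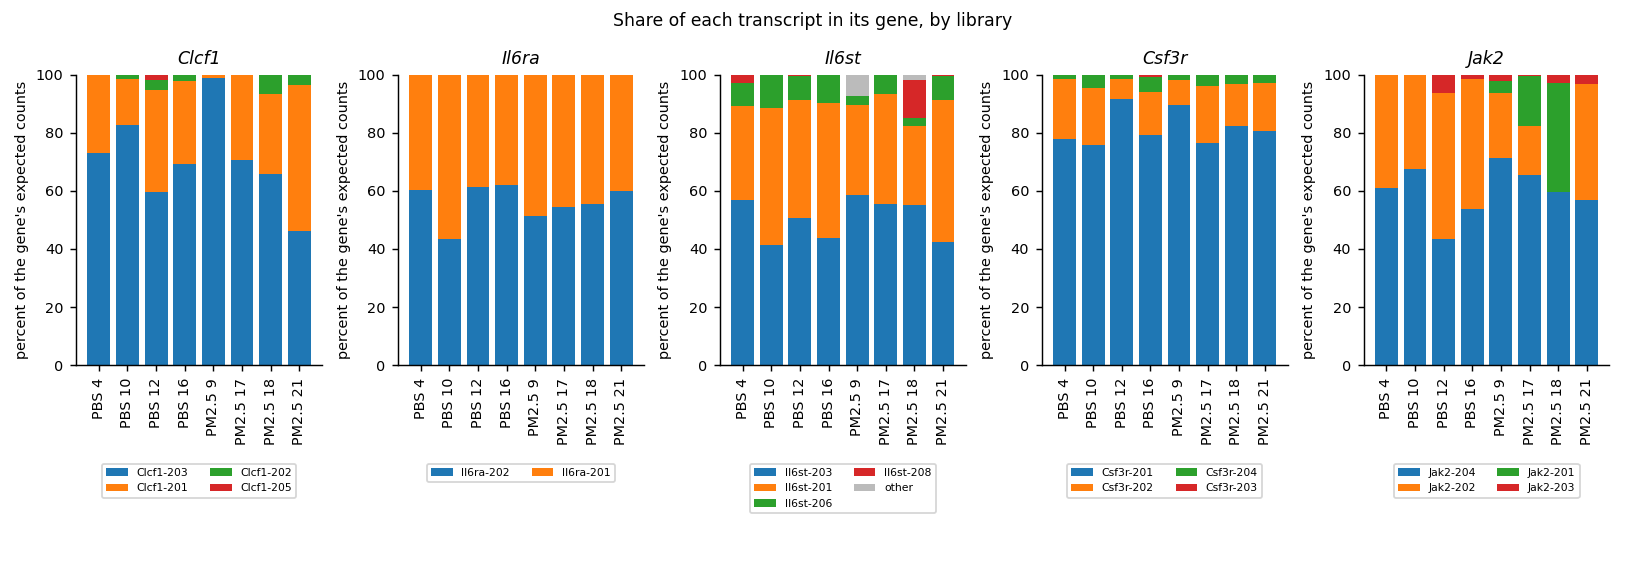
Stacked bars of the share of each transcript in its gene's expected counts (percent) in every library, for Clcf1, Il6ra, Il6st, Csf3r and Jak2. Jak2-202 was at 0.0% in PM2.5 replicate 18, where Jak2-201 took 37.5%, and Clcf1-203 ranged from 46.1% to 98.8% among PM2.5 libraries.

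Genes with the profile most like a member were found by the root mean square difference in mean-centred log2 CPM over the 8 libraries. Tested genes at a mean of 1 CPM or more were compared. Genes with only predicted or clone names, pseudogenes, and V, D and J segments of antigen receptors were left out. This left 5048 genes for Socs3 and Csf3r and 5049 for Clcf1. For Socs3 these were Slc40a1, the iron exporter ferroportin (0.36), Hp (0.41), Retnlg, a neutrophil resistin-like gene (0.43), Csf2rb (0.44) and Ampd3 (0.45), where the median gene was at 0.81. For Clcf1 they were Prpf39 (0.15), Ebf1 and Bach2, B cell transcription factors (0.19 and 0.20), Phlpp1 (0.20) and Atl2 (0.20), with a median of 0.71. For Csf3r they were Cd33 (0.18), S100a8 (0.21), Mmp9 (0.23), Cxcr2 (0.24) and Slfn4 (0.24), with a median of 0.62. S100a8, Mmp9, Cxcr2 and Retnlg stood on the neutrophil marker list and Ebf1 on the B cell list. All genes share the same 8 libraries and their depth, and these distances are a description.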

How the data were processed

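Libraries from total RNA kept the strand by a dUTP step, per the labels' protocols. Reads were handled with HISAT2 2.0.1, cutadapt 1.9.1 and bcl2fastq 2.17.1.14 on the build GRCm38, as listed in the submitters' processing notes. Neither the counting tool nor its strand setting is given in the sources used, and reads of overlapping genes may therefore not be told apart. The authors deposited expected counts (estimated counts, not normalized, 24.5% of them not whole) and FPKM per transcript. The FPKM values were scaled by length and library by the authors, per the file headers.

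Here 116710 of 118783 transcripts were matched to GENCODE M21, giving 35944 genes by summing. The other 2073 held 0.0266% to 0.0532% of a library. The test on rounded sums was the two-sided quasi-likelihood test of edgeR 4.0.16 under R 4.3.3 (filterByExpr, minimum count 10 and minimum total 15, TMM, Benjamini-Hochberg over 10361 genes, threshold 0.05). The model held the group alone, since the labels name no batch. CPM values include haemoglobin and sum to different totals, because TMM follows the other genes. Every pair of libraries differed by more than sampling noise. The procedure was tested on simulated data.

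The members and lists were chosen with earlier results of these data known. All members were named, and of each pathway list those past the threshold (8 at most, ranked by p) or, with none past it, the 2 of smallest p. For 3 members the 5 genes of closest profile were also named. Alternatives were no filter, library totals, median-ratio factors, haemoglobin removed, DESeq2 1.42.0, limma 3.58.1 with a trend on log2(FPKM + 1) or log2(FPKM + 0.1), and libraries left out. Promoter sequence is from RefSeq, GRCm38.p6.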

Additional observations from a re-analysis of the deposited data

Results flagged for a closer look

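Among 60 groups of 4 values examined for a library far from the others, 4 stood out, and chance flags about 1 in 20. The gap to the nearest library, over the group's range, was compared with the critical value of Dixon's test. Clcf1 was at 0.951 CPM in PBS replicate 10, high among the controls (0.905), and that library is 1 of those whose removal ended the gene's call. Nfil3 was at 0.837 CPM in PBS replicate 12, low among the controls (0.877). Il6ra-201 held 56.4% of Il6ra counts in PBS replicate 10 and Il6ra-202 the remaining 43.6%, each 0.912 of the range from the nearest control. The last pair is 1 observation, since both shares add to the gene.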

How the results depend on the processing

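No paired analysis was possible because the PM2.5 and PBS libraries share no replicate number in the labels. Of 17 settings, Clcf1 and Socs3 kept their direction in each that gave a value. The median log2 fold change of all genes was -0.52 with library totals and -0.28 and -0.38 with limma on log2(FPKM + 1) and log2(FPKM + 0.1). Genes called higher and lower were 313 and 311 with no filter, 8 and 475 with library totals, 96 and 269 with DESeq2, 0 and 0 with either limma fit, and 5 and 3 without PM2.5 replicates 17 and 18. Without PM2.5 replicates 9 and 21, 108 were higher. Leaving out 1 library gave 6 to 66 higher and 25 to 134 lower. Pathway genes called higher were 13 with no filter, 0 with library totals, 0 with either limma fit, 1 without PM2.5 replicates 17 and 18, 5 without 9 and 21, and 2 to 9 with 1 library left out. Pathway genes called lower were 2 with library totals, 0 with either limma fit, 0 without PM2.5 replicates 17 and 18, and 0 to 1 with 1 library left out. STAT3 targets called higher were 0 with library totals and either limma fit, 1 without PM2.5 replicates 17 and 18, and 2 to 7 with 1 library left out.

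Calls that appeared: Osm with no filter (0.77), Il6st with library totals (-1.07) and DESeq2 (-0.49), and Csf3r with no filter (0.87) and DESeq2 (0.89). Calls that were lost: Clcf1 without PM2.5 replicates 17 and 18 (-1.16), and Socs3 with library totals (0.86), with limma (0.48 and 0.70), and without PM2.5 replicates 17 and 18 (1.46) or 9 and 21 (1.13). With 1 library left out, the log2 fold change ran from -1.33 to -1.15 for Clcf1, 0.56 to 1.01 for Osm, -0.18 to 0.022 for Il6ra, -0.58 to -0.42 for Il6st, 0.68 to 1.07 for Csf3r, 0.11 to 0.26 for Jak1, -0.15 to 0.058 for Jak2, -0.0051 to 0.12 for Stat3 and 1.07 to 1.48 for Socs3. Signs turned for Jak1 with library totals (-0.39) and limma (-0.39 and -0.42), and for Stat3 with library totals (-0.49), limma (-0.40 and -0.51), without PM2.5 replicate 9 (-0.0051) and without 9 and 21 (-0.024). They also turned for Ptpn1 with library totals (-0.19) and limma (-0.10 and -0.13), for Il6ra without PBS replicate 10 (0.022), and for Jak2 without PM2.5 replicate 21 (0.058) or PBS replicate 4 (0.0085). None of the sign changes was in a called value, and apart from scaling and the libraries removed, the cause was not tested. Differences in transcript share, in percentage points with 1 library left out, ran from -1.31 to 4.59 for Csf3r-201, -3.52 to 1.41 for Csf3r-202, -0.321 to 5.77 for Il6ra-201, -5.77 to 0.321 for Il6ra-202, -9.60 to -2.44 for Il6st-201, 2.43 to 8.17 for Il6st-203, -28.6 to -15.3 for Jak2-202 and 2.69 to 10.7 for Jak2-204. Signs turned for Csf3r-201 without PM2.5 replicate 9 (-1.31) or the control 10 (-0.672), for Csf3r-202 without PM2.5 replicate 9 (1.41) or PBS replicates 4 (1.10) and 10 (0.711), and for Il6ra-201 and Il6ra-202 without PBS replicate 12 (-0.143 and 0.143) or 16 (-0.321 and 0.321). Depth limits Socs1, which had 6 to 19 counts per library.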
